A study of Mus musculus with 45 samples.

Results

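The genes described here carry out or regulate the first steps of glucose use in the mouse heart. They are the glucose transporters Slc2a1 (GLUT1) and Slc2a4 (GLUT4), the hexokinases Hk1 and Hk2, the phosphofructokinase subunits Pfkm, Pfkl and Pfkp, and the bifunctional enzymes Pfkfb1 and Pfkfb2. These 9 genes were taken by symbol from the 23284 genes listed for each library, and all 9 were found once in each library.

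Glucose enters a cell through transporters of the Slc2a family. GLUT1 sits in the plasma membrane at rest and is the main form of proliferating and fetal cells, whereas GLUT4 is held in vesicles that insulin or contraction brings to the surface of muscle and fat cells. Hexokinase then traps glucose as glucose 6-phosphate. Hk1 is the broadly expressed form and Hk2 is the insulin-responsive form of striated muscle, and both bind mitochondria. Phosphofructokinase is a tetramer of muscle (Pfkm), liver (Pfkl) and platelet (Pfkp) subunits and is the main rate-controlling step of glycolysis. Its strongest activator, fructose 2,6-bisphosphate, is made and broken down by the bifunctional enzymes. Pfkfb2 is the form known from heart, and Pfkfb1 the form known from liver and skeletal muscle.

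The series studied the transcription factor Gata4 and histone marks in developing, adult and operated heart. Of its 45 samples, the 6 poly(A) RNA-seq libraries are used here, and the 39 chromatin and input libraries were not analysed here. The libraries are Adult (2 libraries), E12.5 (embryonic heart, aged in days after mating), E12.5 labelled Gata4 KO, Banding and Sham (1 each). In banding a band is tied around a large artery so that the heart pumps against a higher load, and sham is the operation without the band. The labels do not name the vessel, the time after the operation, the strain or the adult age. They list the alleles Gata4fbio, Rosa26BirA, cTNTcre and Gata4flox for every sample alike and do not say which library carries which. A cTNT promoter drives Cre in heart muscle cells, so other cells of such a heart would keep the gene. Each library was made from 2 µg of pooled RNA, and nothing says that the adult pair came from separate animals or pools, so p-values here reflect only how far these libraries spread, and that spread may be technical.

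The libraries held 12086929 to 21056784 mapped reads. Reads on listed genes made up 75.9% to 83.9% of these in the adult and E12.5 libraries, but 58.0% in banding and 55.6% in sham. The ribosomal RNA precursor Rn45s had log2 levels of 12.96 (banding) and 12.94 (sham), and of 6.21 to 8.94 in the adult and E12.5 libraries. Rn45s is itself a listed gene, so its reads are counted inside these shares. The shares on the remaining listed genes therefore lie below the figures given. Levels are log2(FPKM + 1), where FPKM counts fragments per kilobase of a transcript and divides by the library's mapped reads. Over genes reaching 5 FPKM in either group, the median difference was -0.74 for sham against adult and -1.28 for sham against E12.5. For banding against sham it was 0.06. How much of the lower levels comes from the share of reads on listed genes was not tested. All 5 heart muscle markers were present in every library, with a summed level of 19574 to 41984 FPKM. In the library labelled Gata4 KO, Gata4 itself stood at 6.13 against 5.93 in E12.5, a ratio of 1.15 (95% counting interval 1.10 to 1.20), so the label is not borne out by the summed level of the gene. The part of the gene that was deleted is not given, and reads are summed over the whole gene. It is called the library labelled Gata4 KO below.

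RefSeq promoter windows of GRCm38.p6, which run from 250 bases before to 50 after a start site, were on hand for 8 of the 9 genes, with 17 start sites between them. The windows of Slc2a1, Hk2 and Pfkp are shown because each of these genes has 1 start site in the table and because they stand for 3 courses in the data. Slc2a1 fell most from E12.5 to adult, Hk2 rose, and Pfkp was the gene that stood at least 2-fold higher in banding than in sham. Capitals mark the core ACGTG of the hypoxia response element on either strand (CACGT on the other strand). Each is written 5′ to 3′ along the gene's own strand.
Slc2a1, chr4:119108495-119108794, plus strand: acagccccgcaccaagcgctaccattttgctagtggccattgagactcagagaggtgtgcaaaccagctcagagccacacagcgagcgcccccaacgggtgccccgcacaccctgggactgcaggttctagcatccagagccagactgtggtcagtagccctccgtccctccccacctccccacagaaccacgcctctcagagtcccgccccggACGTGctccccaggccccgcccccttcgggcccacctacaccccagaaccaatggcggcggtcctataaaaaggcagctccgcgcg
Hk2, chr6:82774405-82774704, minus strand: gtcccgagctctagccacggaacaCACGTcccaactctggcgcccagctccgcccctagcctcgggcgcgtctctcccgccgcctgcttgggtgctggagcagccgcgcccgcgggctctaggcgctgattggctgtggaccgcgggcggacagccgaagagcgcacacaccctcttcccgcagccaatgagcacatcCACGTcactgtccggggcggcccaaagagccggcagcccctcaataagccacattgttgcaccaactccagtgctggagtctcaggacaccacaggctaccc
Pfkp, chr13:6648722-6649021, minus strand: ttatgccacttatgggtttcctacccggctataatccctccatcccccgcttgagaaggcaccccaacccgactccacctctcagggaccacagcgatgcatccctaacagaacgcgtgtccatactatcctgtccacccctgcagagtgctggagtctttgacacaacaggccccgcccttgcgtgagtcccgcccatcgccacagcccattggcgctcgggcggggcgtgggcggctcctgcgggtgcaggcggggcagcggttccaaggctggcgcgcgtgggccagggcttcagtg
The Slc2a1 window holds 1 ACGTG, which begins 36 bases before the start site. The Hk2 window holds 2, which begin 226 and 52 bases before it, and the Pfkp window holds none. Of the 17 windows 7 hold this core, and so do 19.6% of all 32851 promoter windows. The longer palindrome CACGTG, which contains ACGTG, is in 2 of the 17 windows, at 1 start each of Pfkm and Pfkfb2, and in 7.15% of all windows. A GATA motif (AGATAA or AGATAG or TGATAA or TGATAG on either strand) is in 7 of the 17, namely 3 starts of Pfkm, 3 of Pfkfb1 and 1 of Pfkfb2, and in 29.8% of all windows. None of the 3 windows printed holds a GATA motif. Some windows of Pfkm and Pfkfb2 overlap, so the 17 are not separate stretches. The libraries do not show which start site was used, and a match is letters in a window, not a bound site.

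Between E12.5 and adult the heart's transporter mRNA passed from GLUT1 to GLUT4. Slc2a1 stood at 6.52 in E12.5 and at 1.75 and 2.08 in the adult libraries, on the log2(FPKM + 1) scale. It was at 6.92 for the library labelled Gata4 KO, at 1.60 with banding and at 1.07 with sham, so the embryonic and the adult libraries do not overlap. In FPKM, Slc2a1 was at 90.6 in E12.5 against 2.37 and 3.24 in adult, which is 32.3-fold higher in E12.5. Slc2a4 ran the other way. It stood at 4.25 for E12.5 and 4.45 for the library labelled Gata4 KO, at 6.88 and 7.0 in adult, and at 6.10 in banding and 6.01 in sham. By limma, a linear model that shares its estimate of the spread across genes, with Benjamini-Hochberg adjustment over 12658 genes, Slc2a1 fell by 4.60 (SE 0.20, adjusted p = 0.00445) and Slc2a4 rose by 2.69 (SE 0.09, adjusted p = 0.00398) in adult.

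**Figure D1:**
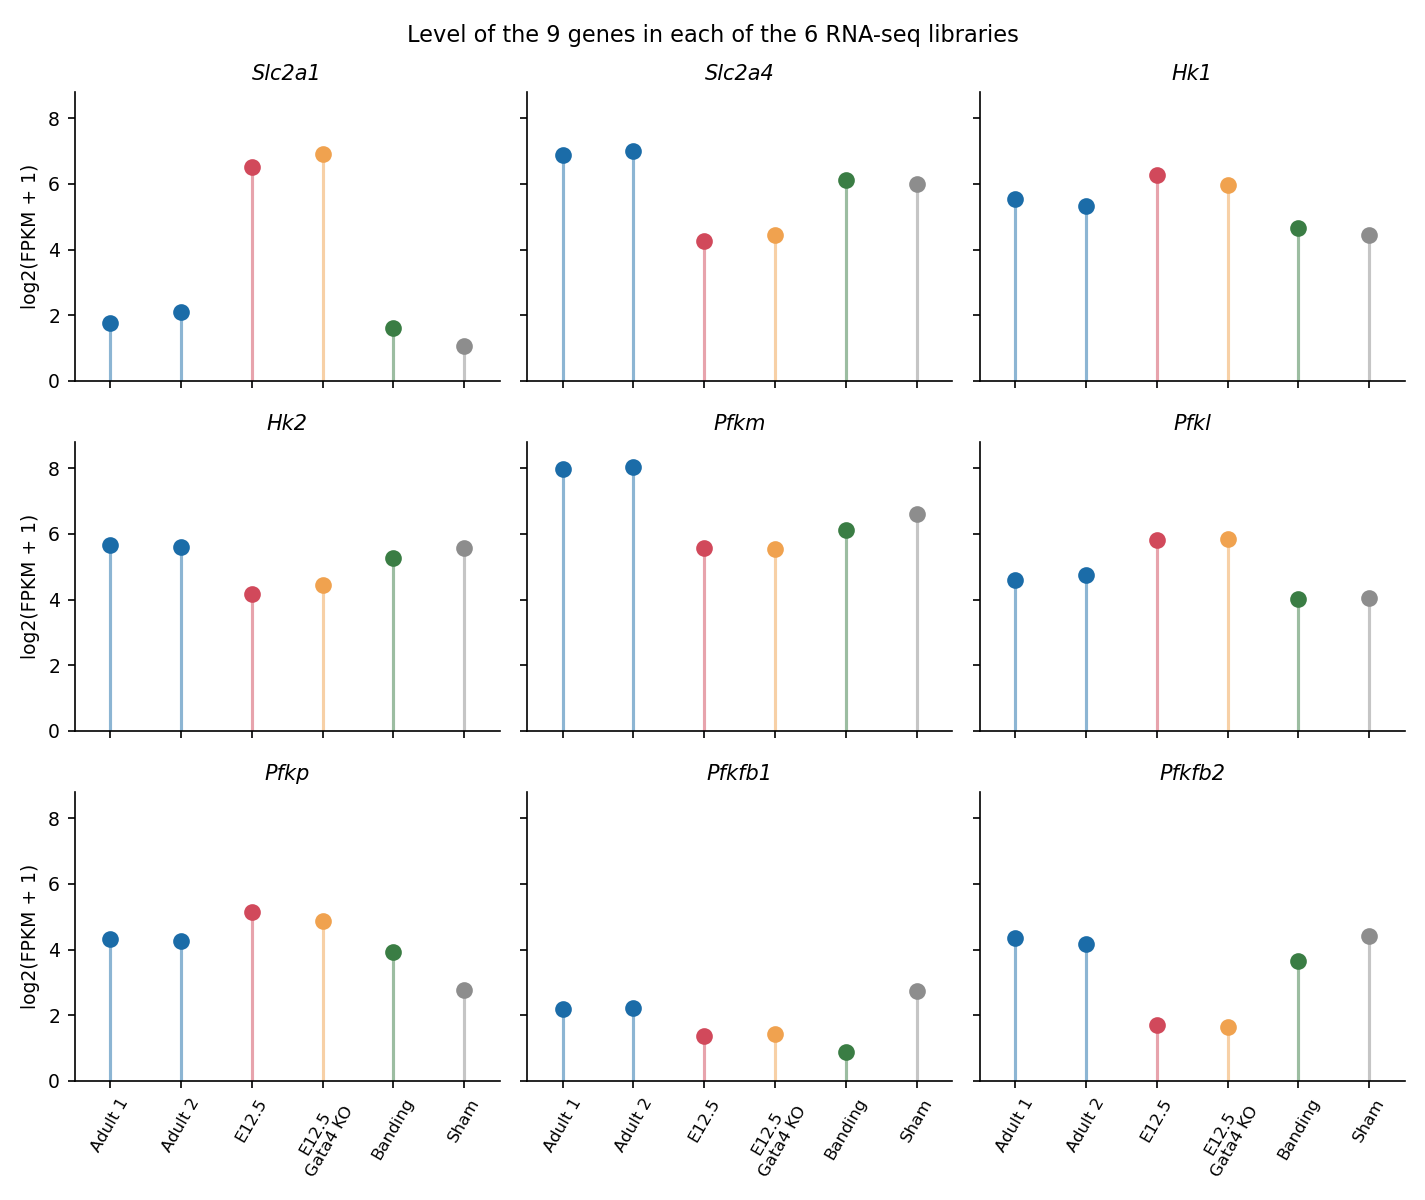
Level of each of the 9 genes as log2(FPKM + 1) (vertical axis) in the 6 libraries (horizontal axis), 1 point per library. Slc2a1 is the gene with the widest span, from 1.07 in sham to 6.92 in the library labelled Gata4 KO, and Pfkm reaches the highest level, 8.03 in an adult library.

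All 9 genes passed the filter of 1 FPKM in at least 1 library and passed the test between adult and E12.5. The genes Slc2a4, Hk2, Pfkm, Pfkfb1 and Pfkfb2 rose, and Slc2a1, Hk1, Pfkl and Pfkp fell. Of all genes tested, 23.4% rose and 48.4% fell, so a call by itself is common here, and the median over all genes was -0.51 against 0.82 over the 9. The test had 1 residual degree of freedom from the adult pair and took the lone E12.5 library to vary like it. On simulated data its false calls among all calls exceeded the nominal rate, so the adjusted p-values are to be read with care. Scaling moves the balance of all genes, from 2965 risen and 6123 fallen as deposited to 3961 and 4393 with upper-quartile scaling, 4131 and 4409 with median-of-ratios scaling and 3701 and 4907 without the 50 highest genes. The adult pair differed by more than sampling noise (chi-square per degree of freedom 6.38 over 12399 genes), and the gap between its libraries for the 9 genes was 0.04 to 0.33, with a median of 0.12 against 0.13 over the genes tested.

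**Figure D2:**
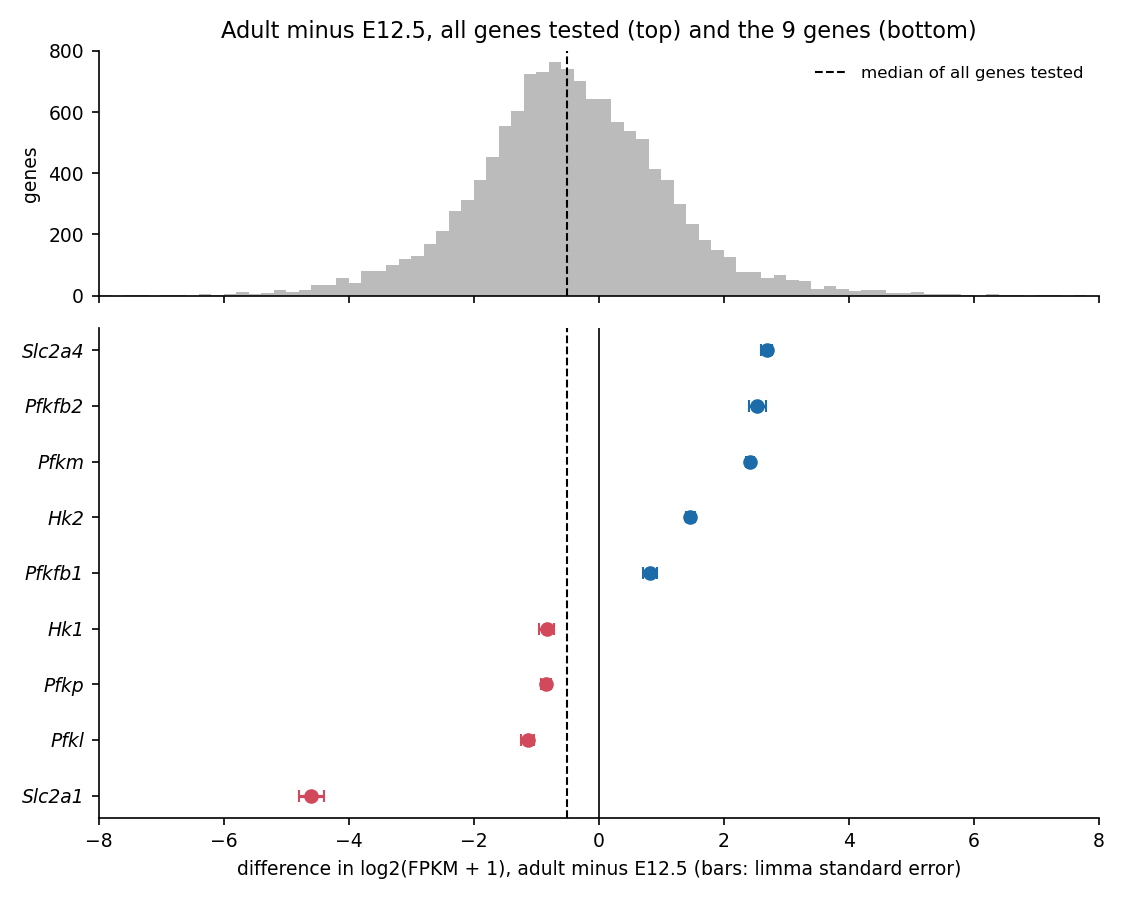
Difference in log2(FPKM + 1), adult minus E12.5 (horizontal axis), as a histogram of all 12658 genes tested (top, number of genes on the vertical axis) and for the 9 genes (bottom, with limma standard errors). The dashed line is the median of all genes, -0.51. Hk1 (-0.83), Pfkp (-0.85) and Pfkl (-1.13) lie near that line, and Slc2a1 (-4.60) and the 5 genes that rose lie away from it.

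Hk2 rose and Hk1 fell, each by less than the transporters. Hk2 stood at 4.16 for E12.5 and 4.43 for the library labelled Gata4 KO, and at 5.65 and 5.60 in adult, 5.26 in banding and 5.57 in sham. The adult and operated libraries all lie above the embryonic ones, and the rise of 1.46 from E12.5 to adult (SE 0.07, limma adjusted p = 0.00481) is 2.86-fold in FPKM. Hk1 stood at 6.27 for E12.5, 5.98 for the library labelled Gata4 KO, 5.54 and 5.34 in adult, 4.65 in banding and 4.44 in sham. Its fall of 0.83 (SE 0.12, limma adjusted p = 0.0203) lay close to the median of all genes. The call on Hk1 was lost under 5 of 8 other settings, with a limma adjusted p of up to 0.147, and its smallest difference was -0.29.

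Pfkm was the most abundant of the 9 genes in the adult heart, at 7.98 and 8.03, or 252 and 260 FPKM. That placed it 173rd and 166th of all genes in the adult libraries. It stood at 5.58 for E12.5, 5.54 for the library labelled Gata4 KO, 6.12 with banding and 6.62 with sham, and rose by 2.42 from E12.5 to adult (SE 0.06, limma adjusted p = 0.00398). Pfkl stood at 5.81 and 5.85 in the embryonic libraries, 4.61 and 4.75 in adult, 4.01 in banding and 4.04 in sham, and fell by 1.13 (SE 0.11, adjusted p = 0.00961). Pfkp stood at 5.13 for E12.5, 4.88 for the library labelled Gata4 KO, 4.32 and 4.25 in adult, 3.91 in banding and 2.76 in sham. It fell by 0.85 (SE 0.08, limma adjusted p = 0.00993), and with median-of-ratios scaling its adjusted p was 0.0620.

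Pfkfb2, the heart form of the bifunctional enzyme, was low in the embryonic heart. It stood at 1.71 for E12.5 and 1.63 for the library labelled Gata4 KO, and at 4.35 and 4.16 in adult, 3.66 in banding and 4.40 in sham. It rose by 2.54 (SE 0.14, limma adjusted p = 0.00537), 7.94-fold in FPKM. Pfkfb1 was the lowest of the 9 genes in E12.5, at 1.38 with 58 reads, and stood at 1.43 in the library labelled Gata4 KO, 2.18 and 2.22 in adult, 0.87 in banding and 2.73 in sham. It rose by 0.82 (SE 0.11, adjusted p = 0.0173), and with no filter on low values its limma adjusted p was 0.0585.

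Shares within a family do not depend on how libraries are scaled to each other, and each is given as percent of the family's summed FPKM with an exact Clopper-Pearson 95% interval. The intervals here and below cover counting error only. Slc2a4 made up 98.0% and 97.5% of the transporter pair in adult but 16.6% in E12.5 (15.7 to 17.5). Hk2 made up 52.0% and 54.7% of the hexokinase pair in adult against 18.1% in E12.5 (17.4 to 18.9). The subunit Pfkm made up 85.6% and 85.5% in adult and 34.4% in E12.5 (33.4 to 35.4), where Pfkl was the largest share at 40.6% and Pfkp held 25.0%. Pfkfb2 made up 84.5% and 82.1% of the bifunctional pair in adult and 58.8% in E12.5 (51.9 to 65.7). With Pfkfb3 and Pfkfb4 in the sum its share was 76.6% and 69.6% in adult and 25.2% in E12.5, where Pfkfb3, at 2.48 on the log2 scale against 1.71 for Pfkfb2, was the more abundant form. In each of the 4 families the gap between adult and E12.5 was many times the gap between the adult libraries. The library labelled Gata4 KO had a make-up closer to E12.5 than to adult, with Slc2a4 at 14.8%, Hk2 at 24.9%, Pfkm at 34.8% and Pfkfb2 at 55.2%.

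**Figure D3:**
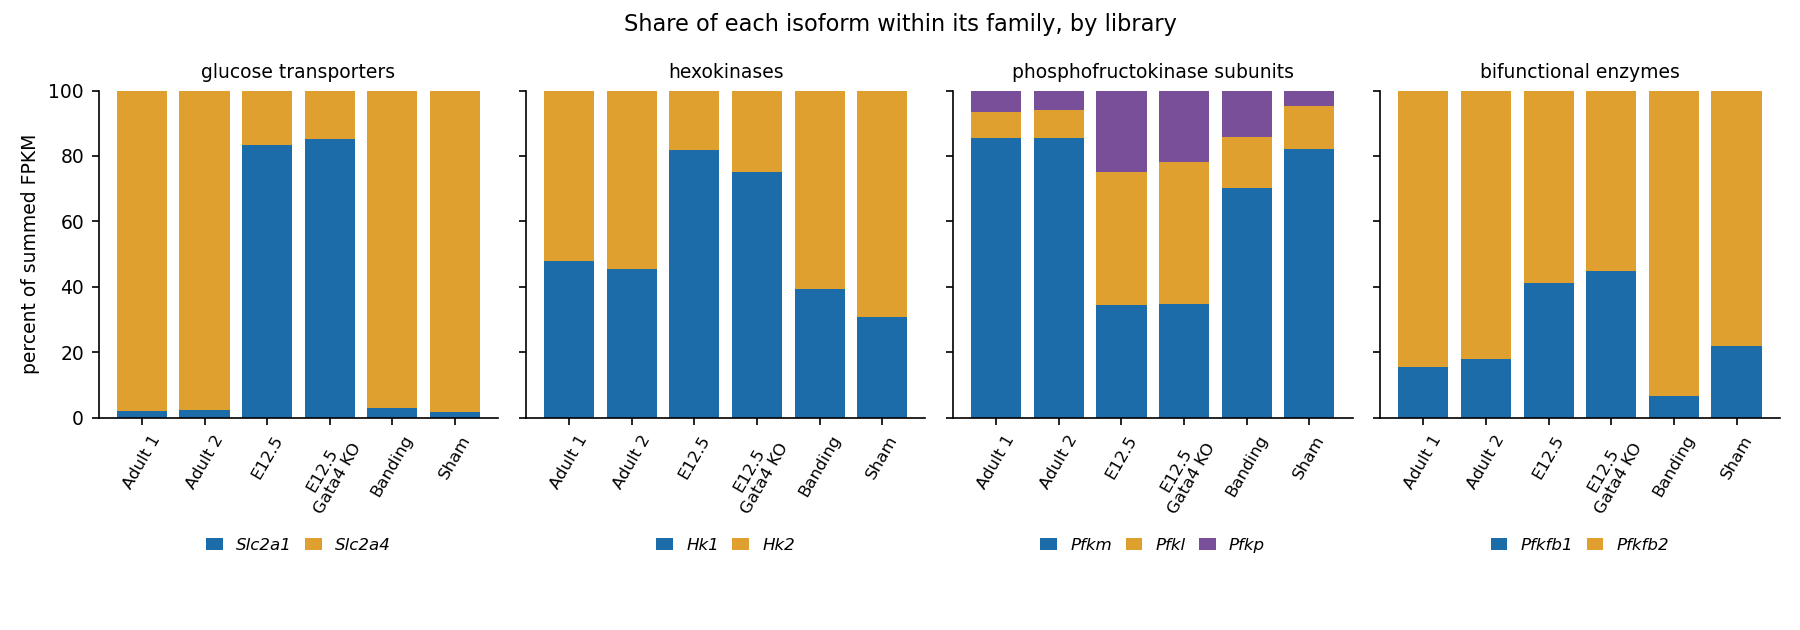
Share of each gene in the summed FPKM of its family (vertical axis, percent) in each library (horizontal axis), with the transporters, hexokinases, phosphofructokinase subunits and bifunctional enzymes from left to right. Slc2a1 is the larger transporter block in both embryonic libraries and Slc2a4 in the others, and the Pfkp block is larger in banding (14.3%) than in sham (4.87%).

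Ratios of paired genes put the size of these exchanges in 1 number that is free of gene length and scaling. The ratio of Slc2a4 to Slc2a1 was 247-fold higher in adult replicate 1 than in E12.5 (95% interval 195 to 317) and 197-fold higher in replicate 2 (160 to 244). The ratio of Hk2 to Hk1 was 4.88-fold and 5.44-fold higher in the adult libraries than in E12.5, that of Pfkm to Pfkl 12.7-fold and 11.8-fold, and that of Pfkm to Pfkp 9.66-fold and 10.5-fold. Between the adult libraries the same ratios differed by 0.897-fold to 1.26-fold. Pfkl and Pfkp fell by similar amounts, and their ratio was 0.761-fold and 0.889-fold that of E12.5.

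The summed level of a family moved differently from its make-up. Together Slc2a1 and Slc2a4 stood at 119 and 130 FPKM in adult and 109 FPKM in E12.5. The hexokinase pair stood at 94.5 and 87.1 FPKM in adult and 93.2 FPKM in E12.5, inside the span of the adult pair. The phosphofructokinase subunits summed to 294 and 304 FPKM in adult against 136 FPKM in E12.5, and the bifunctional enzymes to 22.9 and 20.5 FPKM against 3.88 FPKM. Taking these sums as levels assumes the deposited scaling, and shares and ratios do not.

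In bulk RNA a lower level can come from fewer cells of a type or from less RNA per cell, and these cannot be told apart. Markers of other cells differed between the ages. The summed level of 10 erythroid genes was 21307 FPKM in E12.5 and 0.607 and 1.67 FPKM in adult. In the adult libraries 8 and 7 of the 10 were listed at 0, among them the globins of the embryo (Hba-x, Hbb-bh1 and Hbb-y). Hba-a1 and Hbb-b1 were listed at 0 in E12.5 as well, so their zeros do not separate the ages. The summed level of 4 atrial muscle genes was 11174 FPKM in E12.5 and 343 and 256 FPKM in adult. For 4 epicardial genes it was 77.2 against 7.85 and 5.53 FPKM, with all 4 falling by limma. For 4 smooth muscle genes it was 518 against 210 and 221 FPKM, but these genes were split. By limma Acta2 and Cnn1 fell, Tagln did not pass, and Myh11 rose by 5.51 (SE 0.17, adjusted p = 0.00398). The part of these other cells in the differences of the 9 genes was not tested.

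Banding was set against sham to ask how the loaded adult heart differs from its operated control. With 1 library each there is no replicate check and no p-value, so a rule of size was used, namely at least 2-fold in FPKM with at least 5 FPKM in the higher library. Of the 8 genes that could pass, Pfkp was higher in banding and Pfkfb1 was lower. Among all 5108 genes that could pass, 3.19% were higher and 1.62% lower, and the median difference was 0.06 against -0.02 over the 9 genes. Without the 50 highest genes in the scaling the balance turned, from 163 higher and 83 lower to 142 and 164. The same rule called 0.588% of genes between the adult libraries, and none of the 9.

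Pfkp, the platelet subunit of phosphofructokinase, stood at 14.0 FPKM in banding and 5.77 FPKM in sham, with 784 and 278 reads. The ratio was 2.43 (95% counting interval 2.12 to 2.80). Pfkm stood at 68.7 FPKM against 97.2 FPKM, a ratio of 0.706 (0.671 to 0.743), and Pfkl at 15.1 against 15.4 FPKM, a ratio of 0.982 (0.886 to 1.09). The ratio of Pfkp to Pfkm was thereby 3.44-fold higher in banding (2.97 to 4.0). Pfkp made up 14.3% of the subunits in banding (13.4 to 15.3) and 4.87% in sham, and the Pfkm share was 70.2% against 82.1%. By share, unoperated adult heart, with Pfkp at 6.44% and 5.94%, lay closer to sham, and E12.5, at 25.0%, lay above banding. By level as deposited, adult Pfkp, at 18.9 and 18.0 FPKM, lay above both operated libraries and closer to banding. The ratio of Pfkl to Pfkp, which scaling does not alter, was 1.23 and 1.44 in adult, 1.08 in banding and 2.67 in sham.

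Pfkfb1 had few reads in both operated libraries. It stood at 0.829 FPKM in banding with 20 reads and at 5.62 FPKM in sham with 117 reads, and sham was 6.78-fold higher (4.2 to 11.5). Sham was the highest of the 6 libraries for this gene and banding the lowest, with adult between them at 3.55 and 3.67 FPKM. Pfkfb2 stood at 11.6 FPKM in banding and 20.2 FPKM in sham, a ratio of 0.576 (0.534 to 0.620), which did not reach 2-fold. The bifunctional pair together stood at 12.4 FPKM in banding against 25.8 FPKM in sham.

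The transporters and hexokinases differed less. Slc2a1 stood at 2.03 FPKM in banding and 1.09 in sham, a ratio of 1.85 (1.22 to 2.87) on 73 and 34 reads, and it was the gene that could not pass because both levels lay under 5 FPKM. Slc2a4 stood at 67.8 and 63.4 FPKM, a ratio of 1.07 (1.01 to 1.13) that turned to 0.966 when the 50 highest genes were left out of the scaling. Hk2 was at 37.2 against 46.5 FPKM (ratio 0.800, 0.760 to 0.842) and Hk1 at 24.1 against 20.7 FPKM (ratio 1.16, 1.07 to 1.26). The ratio of Hk2 to Hk1 was 0.688-fold that of sham (0.625 to 0.757), and the Hk2 share 60.7% against 69.2%. Between the adult libraries this ratio differed by 0.897-fold. The ratio of Slc2a4 to Slc2a1 was 0.577-fold that of sham (0.371 to 0.883), and Slc2a4 still made up 97.1% of the pair in banding.

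**Figure D4:**
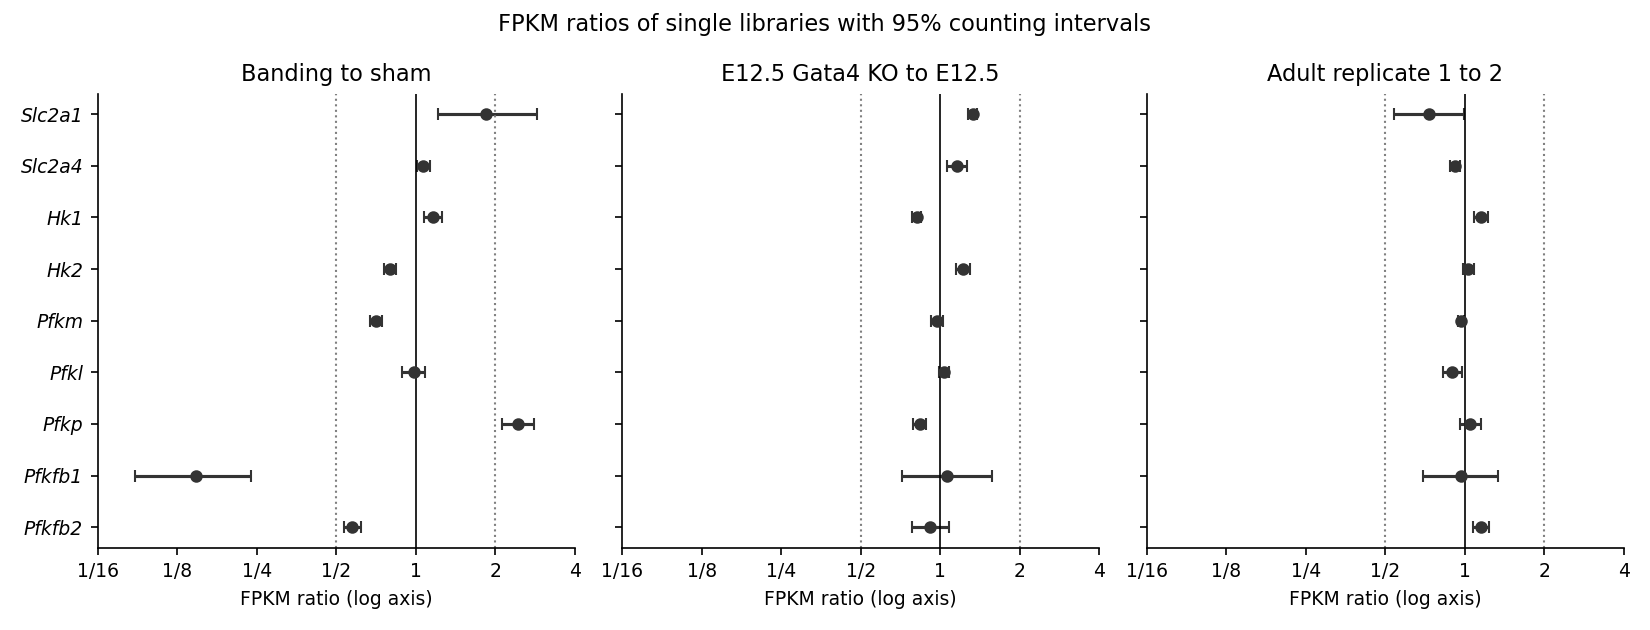
FPKM ratios (horizontal axis, log scale) of the 9 genes in banding to sham, in E12.5 labelled Gata4 KO to E12.5 and between the adult replicates, with 95% counting intervals. Dotted lines mark 2-fold in either direction, which Pfkp (2.43) and Pfkfb1 (0.147) pass in banding and no gene passes in the other panels.

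Some markers of other cells differed between banding and sham. Summed endothelial markers stood at 159 FPKM in banding and 166 FPKM in sham. No endothelial, smooth muscle or macrophage marker passed the rule of size. The summed level of 6 fibroblast genes was 679 FPKM in banding and 260 FPKM in sham (105 and 132 FPKM in adult), and 4 of the 5 that could pass the rule were higher. Those 4 were Col1a1, Col3a1, Dcn and Postn. Dcn had the highest log2 level of the list in both operated libraries (banding 8.98, sham 7.72) and so weighs most in the sum. Pdgfra (banding 2.72, sham 2.36) did not pass, and Tcf21 (banding 1.11, sham 0.96) was too low to be judged by the rule. Of 4 atrial genes, Nppa, the atrial natriuretic peptide that loaded ventricles also make, stood at 12.39 in banding against 8.28 in sham, while Sln was listed at 0 in both. The summed heart muscle markers stood at 21328 FPKM in banding and 24047 FPKM in sham. Their part in the Pfkp difference was not tested.

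Between the library labelled Gata4 KO and E12.5 the FPKM ratios of the 9 genes ran from 0.814 to 1.33. None of the 7 genes that could pass the rule of size did so. Among all 8218 genes that could pass, 1.85% were higher and 1.01% lower, so a lack of calls says little about these 7. Slc2a1 stood at 120 FPKM in the library labelled Gata4 KO and 90.6 FPKM in E12.5, a ratio of 1.33 (1.28 to 1.38). Slc2a4 stood at 20.8 and 18.0 FPKM, a ratio of 1.16 (1.06 to 1.26). Hk1 was at 62.1 against 76.3 FPKM (ratio 0.814, 0.783 to 0.845) and Hk2 at 20.6 against 16.9 FPKM (ratio 1.22, 1.15 to 1.30). The ratio of Hk2 to Hk1 was 1.5-fold higher (1.39 to 1.61), a wider gap than the 0.897-fold between the adult libraries.

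For the phosphofructokinase genes the library labelled Gata4 KO gave intervals that mostly reach 1. Pfkm had a ratio of 0.972 (0.920 to 1.03) and Pfkl of 1.03 (0.985 to 1.08), and Pfkp stood at 28.5 against 34.1 FPKM, a ratio of 0.836 (0.789 to 0.885). Pfkfb1 and Pfkfb2, at under 5 FPKM in both libraries, had ratios of 1.06 (0.715 to 1.57) and 0.916 (0.779 to 1.08). The erythroid markers summed to 64781 FPKM in the library labelled Gata4 KO and 21307 FPKM in E12.5, all 5 that could pass were higher, and Slc4a1, the anion exchanger of the red cell membrane, stood at 6.79 against 5.66. Their part in the Slc2a1 difference was not tested. Fibroblast markers stood at 276 against 123 FPKM and heart muscle markers at 19574 against 29521 FPKM.

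Sham and unoperated adult heart differ in the share of reads on listed genes. The part of that share in the level differences was not tested. Of the 8 genes that could pass, Hk1, Pfkm and Pfkp were lower in sham by the rule of size and none was higher, where 43.7% of 6671 genes were lower and 6.49% higher. With upper-quartile scaling the balance turned from 433 higher and 2915 lower to 1499 and 1311. The median of all genes was -0.74 as deposited, so these 3 calls sit in a general shift, and with upper-quartile scaling or without the 50 highest genes none of the 3 passed. With median-of-ratios scaling Pfkp was still lower, at a ratio of 0.445, and Hk1 and Pfkm were not. Pfkm stood at 97.2 FPKM in sham against 252 and 260 FPKM in adult, a ratio of 0.380 (0.367 to 0.395) that was 0.543 to 0.646 with the 3 other scalings. Hk2 (ratio 0.962, 0.921 to 1.00) and Pfkfb2 (1.11, 1.05 to 1.18) stood near their adult level as deposited, and at ratios of 1.37 to 1.63 and 1.59 to 1.89 with those scalings. Pfkfb1 was 1.56-fold higher in sham (1.22 to 2.00), and with each of the 3 other scalings it passed the rule as higher, at 2.23-fold to 2.65-fold. The ratio of Hk2 to Hk1 in sham was 2.07-fold that of adult replicate 1 (1.90 to 2.27) and 1.86-fold that of replicate 2 (1.70 to 2.04), which no scaling alters.

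Set against E12.5, sham had Slc2a4, Hk2, Pfkm, Pfkfb1 and Pfkfb2 higher and Slc2a1, Hk1, Pfkl and Pfkp lower by the rule of size, where 10.9% of 8544 genes were higher and 61.0% lower. With upper-quartile scaling the balance went from 935 higher and 5215 lower to 2501 and 2462. The directions of the 9 genes are those of adult against E12.5, and both comparisons use the same E12.5 library. With each of the 3 other scalings Hk1 and Pfkl no longer reached 2-fold. The ratio of Slc2a4 to Slc2a1 was 291-fold higher in sham than in E12.5 (206 to 424), that of Hk2 to Hk1 10.1-fold (9.28 to 11.1) and that of Pfkm to Pfkp 12.2-fold (10.7 to 14.0).

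The rest of glucose use was read from lists of named genes. The counts are on the deposited scaling, and the median of all genes moved from below 0 to near 0 with upper-quartile scaling, so small falls depend on it. Among 12 other sugar transporters, 4 were tested, and Slc2a3, Slc2a8 and Slc2a10 fell in adult while none rose (median difference -1.34). Slc2a3 (GLUT3), a high-affinity transporter, stood at 2.88 in E12.5 and 0.21 and 0.61 in adult (difference -2.46, SE 0.23, limma adjusted p = 0.00974), and was 2.12-fold higher in the library labelled Gata4 KO (1.91 to 2.37).

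Of 5 further enzymes that act on fructose bisphosphates, 3 were tested and 2 rose. The muscle fructose bisphosphatase Fbp2 stood at 0.15 in E12.5 and 4.0 and 4.26 in adult (difference 3.98, SE 0.18), and at 1.22 in banding and 2.27 in sham. Tigar, listed as 9630033F20Rik, rose by 1.55 (SE 0.12), and Pfkfb3 stood at 2.48 in E12.5 against 1.65 and 2.15 in adult, which did not pass. Of 15 tested genes of lower glycolysis 5 rose and 8 fell (median difference -0.38), a split near that of all genes, of which 23.4% rose and 48.4% fell. Among these the muscle enolase Eno3 rose by 1.46 (SE 0.07), phosphoglycerate kinase Pgk1 by 2.16 (SE 0.07) and Gapdh by 5.60 (SE 0.18). Triosephosphate isomerase Tpi1 fell by 3.30 (SE 0.07), the enolase Eno1 by 2.29 (SE 0.09) and the aldolase Aldoc by 2.18 (SE 0.05). Gapdh, Tpi1, Eno1 and Pgk1 have near-identical processed copies in the genome, so their counts are uncertain. Bpgm, the red cell enzyme that makes 2,3-bisphosphoglycerate, fell by 1.92 and was 2.10-fold higher in the library labelled Gata4 KO (1.97 to 2.25), beside the erythroid markers given above.

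**Figure D5:**
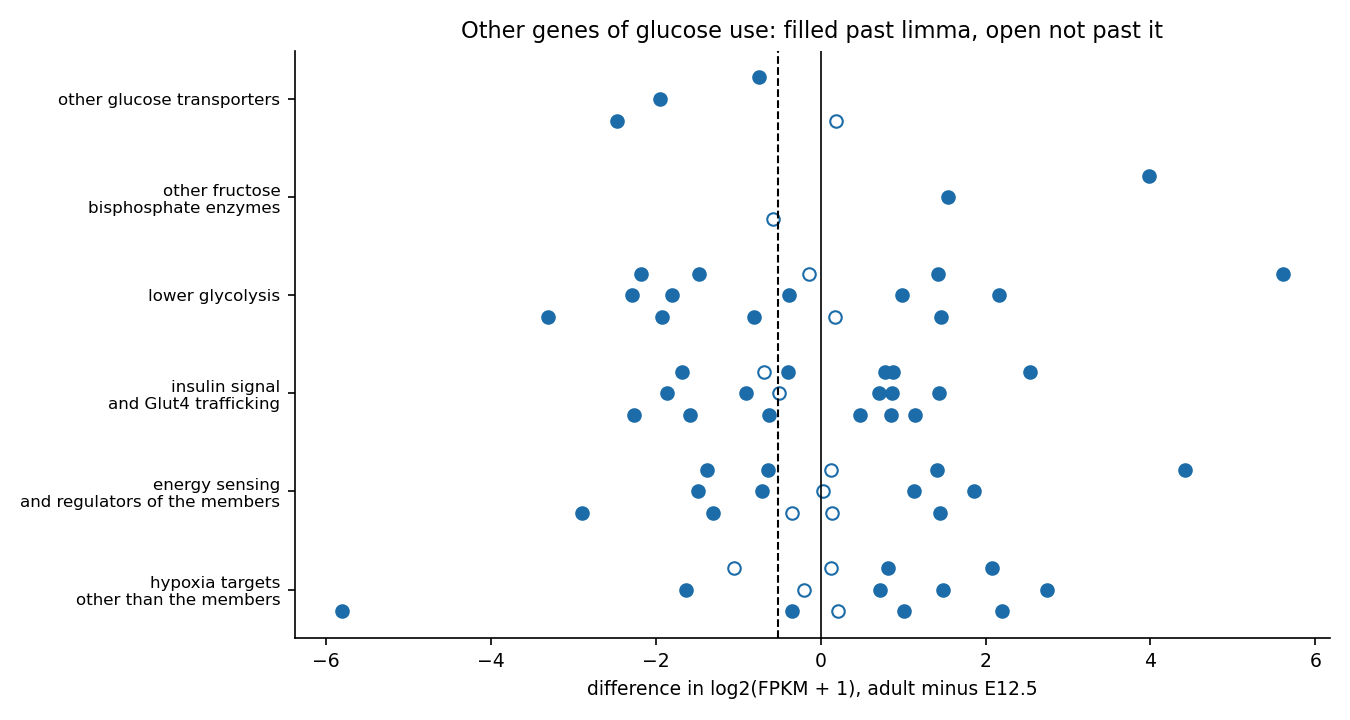
Difference in log2(FPKM + 1), adult minus E12.5 (horizontal axis), for each tested gene of 6 lists (vertical axis), filled where it passed limma and open where it did not. The dashed line is the median of all genes, -0.51. In lower glycolysis 5 genes rose and 8 fell, and the widest rise of any gene shown is that of Gapdh, 5.60.

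Regulators of these steps were read in the same way. Among 18 genes of insulin signalling and GLUT4 trafficking, 9 rose and 7 fell, where 23.4% of all genes rose and 48.4% fell. The largest rises were those of the phosphoinositide kinase subunit Pik3r1 (2.54, SE 0.23), the kinase Akt2 (1.44, SE 0.08) and Txnip (1.14, SE 0.13), a brake on glucose uptake. The largest falls were those of Aspscr1 (-2.26, SE 0.12), which tethers GLUT4 vesicles, Irs2 (-1.86, SE 0.12) and the kinase Akt1 (-1.68, SE 0.09). Txnip stood at 3.81 in banding and 5.0 in sham and was the gene of this list past the rule of size, with a ratio of 0.418 (0.375 to 0.465). Over the list the median difference of adult from E12.5 was 0.04, against -0.51 over all genes.

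Of 15 energy sensors and regulators, 5 rose and 6 fell from E12.5 to adult (median difference 0.03), near the 23.4% and 48.4% of all genes. Epas1, the hypoxia-inducible factor HIF-2 alpha, rose by 4.42 (SE 0.06), Klf15 by 1.86 (SE 0.33) and Mef2a, an activator of Slc2a4 in muscle, by 1.45 (SE 0.10). The proto-oncogene Myc fell by 2.89 (SE 0.10), Hif1a by 1.48 (SE 0.09) and the AMPK subunit Prkab1 by 1.38 (SE 0.11). Of 14 hypoxia targets other than the 9 genes, 7 rose and 3 fell (median difference 0.47), beside the same shares of all genes. The prolyl hydroxylases Egln3 and Egln1 rose by 2.74 (SE 0.12) and 2.20 (SE 0.10) and Ndrg1 by 2.08 (SE 0.20), while Slc16a3, a lactate carrier, fell by 5.80 (SE 0.12), Car9 by 1.64 (SE 0.14) and Higd1a by 0.34 (SE 0.07). No gene of either list passed the rule of size between banding and sham, or between the library labelled Gata4 KO and E12.5.

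Genes whose pattern over the 6 libraries was most like each of the 9 were found by Pearson correlation of log2(FPKM + 1) over 8551 genes. With 2 embryonic and 4 adult libraries such values mostly record that split. They were Tex261, Cbx1 and Ppib for Slc2a1 (lowest r of those named, 0.999), Jhdm1d, Osmr and Rpl5 for Slc2a4 (0.998), Timm10, Aagab and Rpf1 for Hk1 (0.998) and Sdccag8, Timp4 and Asb14 for Hk2 (0.995). They were Car8, Atp2a2 and Macf1 for Pfkm (0.997), Psmd9 and Ubr7 for Pfkl (0.999), Rtn4, Tusc2 and Rcan1 for Pfkp (0.979), and Psme2, Slc38a3 and Cpeb3 for Pfkfb2 (0.997). Pfkfb1 had the least alike neighbours, Zfp46, Tet2 and Trpm7 (0.867).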

How the data were processed

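Poly(A) RNA-seq of mouse heart was read from 6 deposited libraries, and 39 chromatin and input libraries were not analysed. Per the submitters' processing notes, CASAVA 1.8.2, TopHat 1.4, HTSeq 0.5.3, BWA 0.5.9, MACS 1.4 and mm9 were named for the series, and the sources used here do not say which of them made the expression values. The values the authors deposited are log2(FPKM + 1), 1 per gene symbol, and the scale was read from the values. Undoing log2 gave whole reads for 100% of 98043 values above 0, within 0.001 of a read, with the mapped reads and gene lengths. Whether counting used strand is not given. The members and lists were chosen with earlier results of these data known.

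Adult and E12.5 were compared with limma 3.58.1 (R 4.3.3), its prior variance following the mean and its p-values adjusted by Benjamini-Hochberg at 0.05, on genes reaching 1 FPKM in any of the 3 libraries (1 residual and 1.535 prior degrees of freedom). The fit was tested on simulated data, where its false calls among all calls exceeded the nominal rate. Single libraries were compared by a rule of size, at least 2-fold in FPKM where the higher group reached 5 FPKM. FPKM ratios carry exact conditional binomial 95% intervals and shares Clopper-Pearson ones, computed in Python 3.11.15 with scipy 1.17.1. Reads carry no molecular identifiers, so both cover counting error only. All 9 genes were named, and of each list up to 3 genes per direction with the largest differences past the test or the rule. Alternatives were the pseudocount (0.1), the filter (none, 5 FPKM), 3 scalings, a minimum of 1 FPKM in the rule, all 6 libraries in the fit, each adult library left out, and, chosen after seeing the data, limma-voom on the recovered reads, since the deposited unit is a log value and the count test was not run. The RefSeq gene table was used for names only, and 3 of 154 list entries matched by a synonym. Some genes of the lists are not reported here.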

Additional observations from a re-analysis of the deposited data

How the results depend on the processing

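The directions of the 9 genes between adult and E12.5 held under all the alternatives run. Leaving out either adult library leaves no residual degrees of freedom and so no test, and it kept these directions and the 6 of the 9 genes past the rule of size there. Hk1 lost its call with no filter, with each of the 3 scalings and with limma-voom, Pfkp with median-of-ratios scaling and Pfkfb1 with no filter, and the filter of 5 FPKM leaves Pfkfb1 untested. Limma-voom, chosen after seeing the data, counted 4587 genes that rose where limma counted 2965. In banding against sham, genes lower numbered 125 with upper-quartile scaling and 164 without the 50 highest genes, and a minimum of 1 FPKM gave 398 higher and 256 lower. In the library labelled Gata4 KO, 53 genes were lower without the 50 highest, and a minimum of 1 FPKM gave 428 higher and 205 lower. Sham against adult gave 1499 higher and 1311 lower with upper-quartile scaling, 1108 and 1719 with median-of-ratios scaling and 1550 and 1224 without the 50 highest, and 1263 higher at a minimum of 1 FPKM. Of the 9 genes 1, Pfkfb1, passed there with upper-quartile scaling and 1 without the 50 highest, and 2, Pfkp and Pfkfb1, with median-of-ratios scaling, where 3 passed as deposited. Sham against E12.5 gave 2501 higher and 2462 lower, 2148 and 2805, and 2337 and 2681 with the same scalings, and 1848 higher at a minimum of 1 FPKM. By the rule of size adult against E12.5 had 2396 lower with upper-quartile and 2406 with median-of-ratios scaling. The cause was not tested beyond the settings' own construction. Among the 9 genes no difference past the test or the rule changed sign. Of those not past it, the log2 difference of Slc2a4 in banding against sham turned from 0.09 to -0.05 and that of Pfkm in the library labelled Gata4 KO from -0.04 to 0.05 without the 50 highest. In sham against adult Hk2 turned from -0.05 to 0.45 to 0.69 with the 3 scalings, and Pfkl from -0.64 to 0.04 with upper-quartile scaling and 0.08 without the 50 highest. No paired analysis was possible because the groups compared share fewer than 2 replicate numbers. Counts of 20 to 117 reads limit Pfkfb1 and Slc2a1 in banding and sham, and only the adult group has a second library, so banding against sham, the library labelled Gata4 KO against E12.5 and sham against E12.5 have no replicate check, and sham against adult was read by the rule of size with no test.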

Other observations

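With Pfkfb3 and Pfkfb4 in the sum, the bifunctional enzymes stood at 9.04 FPKM in E12.5 and 25.3 and 24.2 FPKM in adult, against 3.88, 22.9 and 20.5 FPKM for the pair.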
